A study of Saccharomyces cerevisiae with 6 samples.

Results

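The comparison described here sets one mutant of the budding yeast protein Tra1, named M8, against another, named M1. It uses the 2 M8 arrays and the 2 M1 arrays out of 6 in the series, and no wild-type array enters it. The genes are all those with a probe set that names a single gene, which gives 5656 genes, each read from its brightest probe set by the mean of the 6 arrays. The labels describe both strains as GID mutants, short for Gal4 interaction defective, and give the same growth medium (YPD, a rich glucose medium), no treatment, and total RNA from whole cells for all 4 arrays. What the 2 groups share is therefore the GID class, the medium and the protocol, and what separates them is the mutant name. Neither the amino acid changes of M1 and M8 nor any marker or plasmid that carries them is given by the labels. The 2 arrays of a group are labelled as duplicates, and nothing says that they came from separate cultures. Every error below therefore rests only on spreads between duplicate arrays, which may be technical. The standard errors (SE) are moderated by limma, which blends a gene's own spread with that of all genes. A small SE is thus not the spread of that gene alone.

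Tra1 is a very large protein of the PIKK family, related to the kinases TOR and ATM but without kinase activity. It is shared by SAGA and NuA4, the complexes that acetylate histones H3 and H4 at promoters, and it is the surface that many activators contact. Gal4, the activator of the galactose genes, is the best known of these activators in yeast. In glucose medium Gal4 is held inactive by Gal80 and the galactose genes are repressed, so in YPD the galactose genes are not being activated.

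The 4 arrays did not stand at equal distances. M8 replicates 1 and 2 lay close together, with an SD over genes of 0.142 for the log2 difference between them, and no gene differed 2-fold or more. M1 replicates 1 and 2 lay further apart, with an SD of 0.349, and 61 genes were 2-fold or more higher and 39 were 2-fold or more lower in M1 replicate 2. The mean of the M8 arrays differed from M1 replicate 1 with an SD of 0.174 and from M1 replicate 2 with an SD of 0.329. A mean of a pair varies less than a single array, so the single pairs are given too: M8 replicates 1 and 2 differed from M1 replicate 1 with SDs of 0.173 and 0.202, and from M1 replicate 2 with SDs of 0.320 and 0.352. The M1 duplicates were thus about as far from each other as M1 replicate 2 was from the M8 arrays. The M8 mean minus the M1 mean had an SD of 0.196. M1 replicate 1 correlated with the M8 arrays at 0.996 and 0.995 over genes, and with its own duplicate at 0.986. Genes are not independent replicates, and these coefficients describe the arrays only. Nothing in the labels says which M1 array is the better measure of that mutant, so each gene list below is also given against each M1 replicate by itself, and for the genes described in full the value on every array is given. The differences from the 2 M1 replicates share the M8 arrays and are set side by side for that reason.

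**Figure D1:**
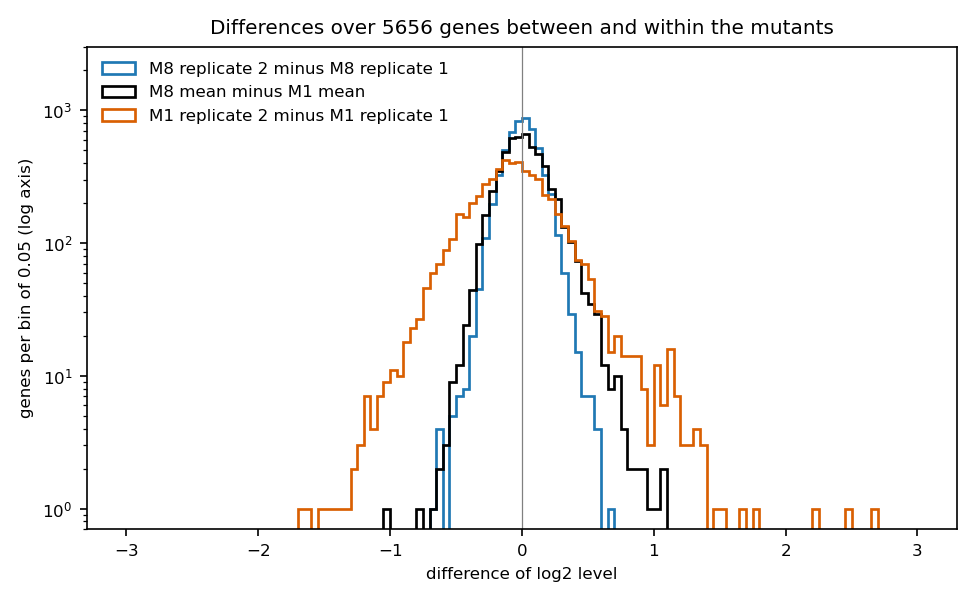
Number of genes (vertical axis, log scale) by log2 difference (horizontal axis, bins of 0.05) for replicate 2 minus replicate 1 of M8 (blue), replicate 2 minus replicate 1 of M1 (orange) and the M8 mean minus the M1 mean (black), over 5656 genes. The curve of the M1 duplicates (SD 0.349) is wider than that of the M8 duplicates (SD 0.142) and than that between the mutants (SD 0.196).

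No gene passed the test between M8 and M1 after adjustment over the 5656 genes. In limma with Benjamini-Hochberg adjustment, 0 genes (0.0%) had an adjusted p under 0.05, and the smallest adjusted p was 0.602. At an unadjusted p under 0.05 there were 234 genes, below the 282.8 that chance gives over this number of tests, and all 234 had both M8 arrays on one side of both M1 arrays. Of these, 155 (2.74% of all genes) had a higher mean in M8 and 79 (1.4%) had a lower one. An ordinary linear model without moderation also gave 0 genes after adjustment, and 272 before it, 138 higher and 134 lower. The split of higher and lower genes thus depended on the moderation. It also depended on the scaling, with 133 higher and 121 lower after quantile normalization and 154 and 113 after median centring. The adjusted count rested on M1 being represented by both arrays. With M1 replicate 2 alone as the M1 sample 1901 genes passed, 1207 higher and 694 lower in M8, and with M1 replicate 1 alone 142 passed, 97 higher and 45 lower. In those fits the lone M1 array is assumed to vary like the M8 pair. The median standard error of a gene's difference was 0.134 on the log2 scale, with 5.80 degrees of freedom after moderation. For 5448 genes (96.3%) the 95% confidence interval lay within 2-fold in either direction, and the median distance from the estimate to either end of the interval was 0.331.

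Seen array by array, 1104 genes (19.5%) had both M8 arrays above both M1 arrays and 1039 genes (18.4%) had both below. For 1568 genes (27.7%) both M8 arrays lay between the 2 M1 arrays, and for 314 genes (5.55%) both M1 arrays lay between the M8 arrays. The remaining 1631 genes (28.8%) were interleaved. The median difference of M8 from M1 over all genes was 0.0093, with -0.016 against M1 replicate 1 and 0.039 against M1 replicate 2. Differences of 2-fold or more between the means were found for 4 genes, 3 higher and 1 lower in M8.

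The lowest p among the genes with higher levels in M8 belonged to CLB1, which encodes a mitotic B-type cyclin. CLB1 read 6.25 and 5.99 in M1 replicates 1 and 2 and 6.79 and 6.83 in M8 replicates 1 and 2, a difference of 0.69 (SE 0.14) on the log2 scale. Genes were taken for the lowest p only if both M8 arrays lay on the same side of both M1 arrays, so that separation is set by the rule. GCV1, the T subunit of the glycine decarboxylase complex, read 8.80 and 8.60 in M1 and 9.26 and 9.31 in M8, a difference of 0.59 (SE 0.13). MTD1, a cytosolic methylenetetrahydrofolate dehydrogenase of the same one-carbon metabolism, read 8.97 and 8.78 in M1 and 9.36 and 9.39 in M8, a difference of 0.50 (SE 0.12). For both genes M1 replicate 1 was the nearer of the 2 M1 arrays to the M8 levels. TIS11, an RNA-binding protein that promotes decay of messages for iron-using proteins when iron is scarce, read 6.0 and 5.92 in M1 and 6.49 and 6.46 in M8. Its M1 duplicates lay close together, and its difference was 0.52 (SE 0.11).

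PHO4, the activator of the phosphate starvation genes, read 6.23 and 6.84 in M1 and 7.24 and 7.43 in M8. Its lower M1 value was replicate 1, unlike GCV1 and MTD1, and its difference was 0.80 (SE 0.22). ARG80, a MADS-box regulator of arginine metabolism, read 6.0 and 5.50 in M1 and 6.35 and 6.45 in M8, a difference of 0.65 (SE 0.18). CUR1, a sorting factor of protein quality control, read 4.77 and 4.61 in M1 and 5.10 and 5.24 in M8. The difference of CUR1 was 0.48 (SE 0.13), at levels low on the array scale. GSY1, a glycogen synthase, read 4.67 and 4.60 in M1 and 5.03 and 5.08 in M8, a difference of 0.42 (SE 0.11). The other genes among the 15 with the lowest p in this direction were YKR041W (0.56), AIM19 (0.56), SOL2 (0.49), RMR1 (0.44), APL4 (0.46), ADK2 (0.47) and COS7 (0.92). Of these APL4 is an adaptin of clathrin coats and ADK2 a mitochondrial adenylate kinase. Each of the 15 had an adjusted p of 0.819 in limma, a value that 1446 genes shared.

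Among the genes with lower levels in M8, the 5S ribosomal RNA gene RDN5-3 came first. RDN5-3 read 9.24 and 9.28 in M1 and 8.23 and 8.20 in M8, a difference of -1.05 (SE 0.11, limma adjusted p = 0.602). Each pair lay close together, and RDN5-3 was the only gene whose mean was 2-fold or more lower in M8. The 5S genes are near-identical copies, so which copy this probe set reads is uncertain. The probe set assigned to RDN5-1 read 11.84 and 12.35 in M1 and 11.38 and 11.80 in M8, a difference of -0.50 (SE 0.22). HSP12, a small membrane-associated stress protein, read 12.70 and 12.66 in M1 and 12.15 and 12.17 in M8. Both pairs of HSP12 values were tight, and its difference was -0.52 (SE 0.11). TPO2, a polyamine exporter of the plasma membrane, read 11.17 and 11.41 in M1 and 10.67 and 10.77 in M8, a difference of -0.57 (SE 0.14). TPO2 has a close paralog, TPO3, and signal of the pair may be mixed. TPO3 itself read 4.53 and 4.93 in M1 and 4.47 and 4.17 in M8, a difference of -0.41 (SE 0.18).

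FAL1 and UTP23, both factors of small ribosomal subunit assembly, were also among the 15 with the lowest p in the lower direction. FAL1 read 6.53 and 6.42 in M1 and 6.03 and 6.03 in M8, and UTP23 differed by -0.42 (SE 0.11). MRI1, an isomerase of the methionine salvage pathway, read 8.41 and 8.69 in M1 and 8.01 and 8.06 in M8, a difference of -0.52 (SE 0.14). NCE103, the carbonic anhydrase, read 9.28 and 9.11 in M1 and 8.73 and 8.76 in M8, a difference of -0.45 (SE 0.12). The differences of the others were -0.48 for YIL001W, -0.44 for AST1, -0.43 for the TORC2 subunit BIT2, -0.43 for KTR7, -0.40 for UGA2, -0.41 for TCD2, -0.45 for EFM1 and -0.40 for RCY1. Their standard errors lay between 0.11 and 0.13. Apart from RDN5-3, each of these genes had an adjusted p of 0.819 in limma.

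**Figure D2:**
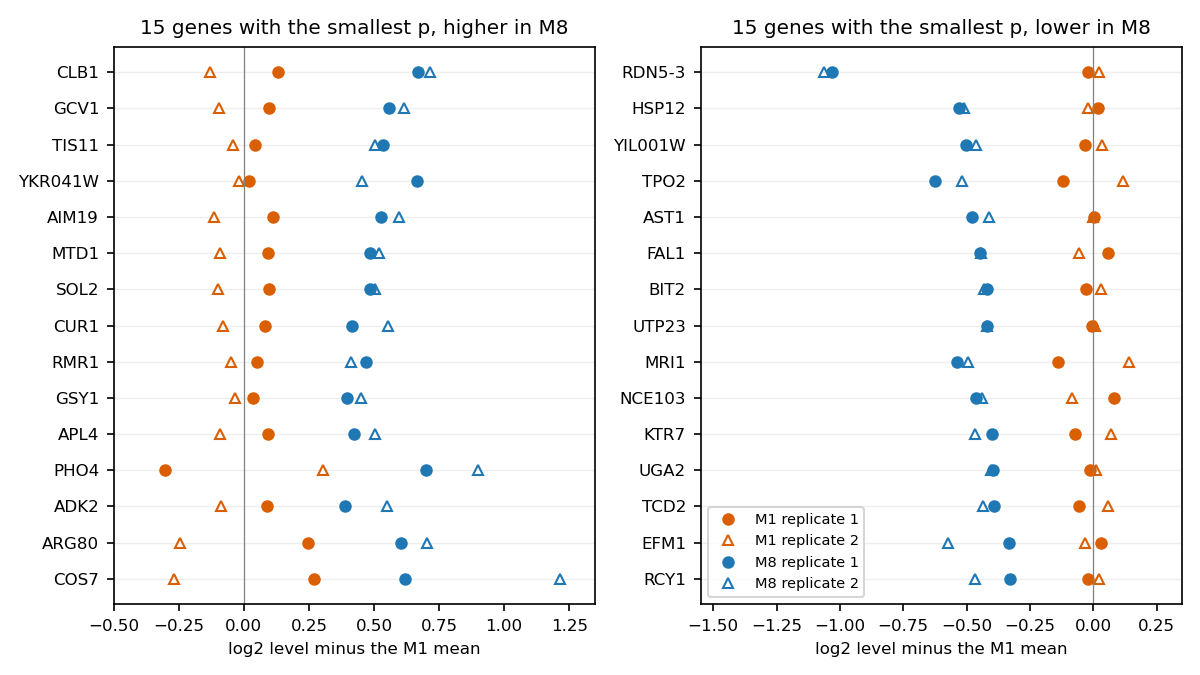
Log2 level minus the M1 mean (horizontal axis) on each of the 4 arrays, for the 15 genes in each direction with the lowest p among genes whose M8 arrays lie on one side of both M1 arrays. Points are single arrays, and by the mean of its M8 arrays RDN5-3 lies furthest from its M1 mean, at -1.05.

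The largest differences described next are those among genes whose M8 arrays lay on one side of both M1 arrays, and they included genes whose M1 duplicates lay far apart. RIP1, the Rieske iron-sulfur protein of respiratory complex III, read 8.90 and 7.28 in M1 and 9.0 and 9.34 in M8. Its difference was 1.08 (SE 0.50), made up of 0.27 against M1 replicate 1 and 1.89 against M1 replicate 2. ISU1, the scaffold on which iron-sulfur clusters are built, read 9.78 and 8.41 in M1 and 10.06 and 9.99 in M8. Against the 2 M1 replicates ISU1 differed by 0.24 and 1.61. COX19, needed for assembly of cytochrome c oxidase, read 5.75 and 4.53 in M1 and 6.10 and 6.29 in M8, with differences of 0.45 and 1.67. All 3 were highest in the M8 arrays and lowest in M1 replicate 2. PIR3, a cell wall protein, differed by 0.41 from M1 replicate 1 and 1.51 from M1 replicate 2. PDR12, the exporter of weak organic acids, read 8.06 and 6.90 in M1 and 8.28 and 8.46 in M8. HCM1, a forkhead transcription factor of S phase, read 5.52 and 4.72 in M1 and 5.71 and 6.17 in M8. Both of these were lowest in M1 replicate 2, with differences of the means of 0.89 (SE 0.36) and 0.82 (SE 0.29).

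Under the same limit the 10 largest positive differences also held the ribosomal protein genes RPS28B (0.87) and RPL7B (0.80), LSB1 (0.82) and COS7. RPS28B and RPL7B each have a near-identical paralog, and the signal of a pair cannot be divided between its members here. On the negative side stood RUB1, a ubiquitin-like modifier, which read 9.29 and 10.07 in M1 and 9.07 and 8.98 in M8, a difference of -0.66 (SE 0.25). SSF1, a factor of large subunit assembly with a close paralog, read 8.16 and 8.79 in M1 and 7.85 and 7.99 in M8, a difference of -0.55 (SE 0.22). By that limit RUB1 and SSF1 stood lower in each M8 array than in either M1 array. The others were YKL183C-A (-0.64), AUA1 (-0.57), YMR230W-A (-0.52) and the small nucleolar RNA SNR75 (-0.52), beside RDN5-3, TPO2, HSP12 and MRI1 already described. Without that limit YNL190W, whose arrays were interleaved, was among the 3 genes 2-fold or more higher in M8, with RIP1 and COX19, at 1.03 (SE 0.53). It read 9.95 and 8.28 in M1 and 9.86 and 10.44 in M8. On the negative side YLR264C-A, named here after its values were seen, read 9.47 and 10.80 in M1 and 9.48 and 9.28 in M8, a difference of -0.75 (SE 0.41). YDR524W-C, with M8 arrays between the M1 arrays, differed by -0.64 (SE 0.67). These 3 genes had larger differences than some of the separated ones, with arrays that overlapped.

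**Figure D3:**
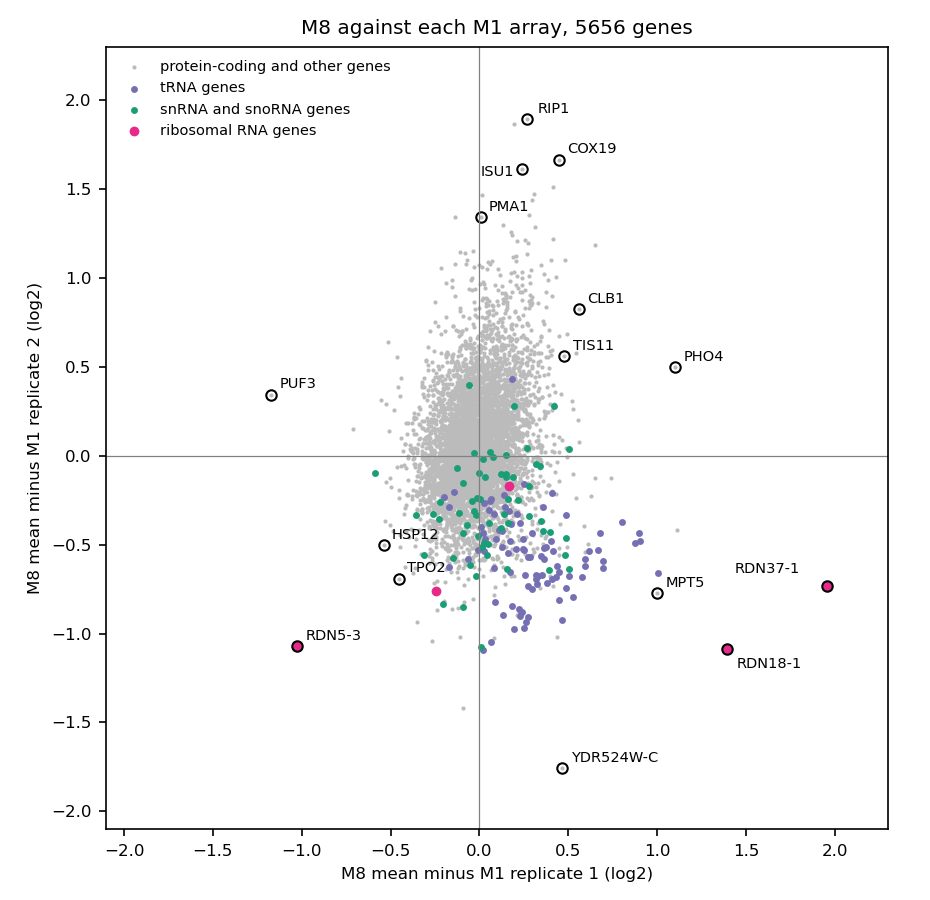
Log2 difference of the M8 mean from M1 replicate 1 (horizontal axis) and from M1 replicate 2 (vertical axis) for 5656 genes. Genes such as RIP1, ISU1 and COX19 lie further from 0 on the vertical axis than on the horizontal one, and because both axes share the M8 arrays the alignment of the cloud is not a result.

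The genes on which the M1 duplicates differed most show where an M1 mean is least certain. RDN37-1, the precursor of the large ribosomal RNAs, read 10.84 in M1 replicate 1 and 13.52 in M1 replicate 2, and both M8 arrays lay between them at 12.74 and 12.84. RDN18-1, assigned to the 18S RNA, read 8.86 and 11.34 in M1 and 10.17 and 10.33 in M8. MPT5, a Pumilio-family RNA-binding protein, read 7.44 and 9.22 in M1 and 8.53 and 8.36 in M8. The M8 levels of all 3 were between the 2 M1 levels, so the sign of the difference depends on which M1 array is taken. PUF3, another Pumilio-family protein that binds messages of mitochondrial proteins, went the other way, with 6.15 and 4.63 in M1 and 4.85 and 5.11 in M8. The plasma membrane proton pump gene PMA1 read 12.36 and 11.03 in M1 and 12.29 and 12.45 in M8. For PMA1 the M8 arrays lay near M1 replicate 1 and far above M1 replicate 2.

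TRA1 itself read 8.49 and 8.79 in M1 and 8.85 and 8.59 in M8, so the arrays of the mutants were interleaved, and its difference of 0.081 (SE 0.16) had a 95% interval from -0.32 to 0.48. Of its 13 probe sets 6 had a higher mean in M8, with a median difference of -0.030 and a range from -0.34 to 0.51. These probe sets read the amount of message and not the changes in the protein, so TRA1 is no check of the labels here. GAL4 read 4.84 and 4.60 in M1 and 4.88 and 4.83 in M8, with interleaved arrays and a difference of 0.14 (SE 0.13).

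Of the 10 Gal4 targets measured, 3 had both M8 arrays above both M1 arrays and 1 had both below, beside 19.5% and 18.4% of all genes. Their median difference was 0.049, beside 0.0093 for all genes, and it was 0.078 and 0.050 against M1 replicates 1 and 2. The structural genes differed by -0.037 (SE 0.13) for the galactokinase GAL1, 0.077 (SE 0.14) for the transferase GAL7, 0.16 (SE 0.16) for the epimerase GAL10 and 0.034 (SE 0.13) for the galactose permease GAL2. The arrays of these 4 genes overlapped, and their 95% intervals ran from -0.37 to 0.29 for GAL1, -0.27 to 0.42 for GAL7, -0.23 to 0.54 for GAL10 and -0.28 to 0.35 for GAL2. Their levels were low, at percentiles 7.5, 8.5, 8.3 and 18.3 of all genes in that order. Without detection calls it is not known whether such signals stand above background. Among the regulators, GAL80, the inhibitor of Gal4, differed by 0.064 (SE 0.11) and GAL3, the galactose sensor, by 0.018 (SE 0.17). The level of GAL3 was also low, at percentile 8.1. MTH1, a repressor of glucose transporter genes, read 5.64 and 5.67 in M1 and 5.96 and 5.98 in M8. Its difference of 0.31 (SE 0.11) was the largest of the 10, and PCL10, a cyclin partner of the kinase Pho85, followed with 0.19 (SE 0.13). The uracil permease gene FUR4 differed by -0.035 and the reductase gene GCY1 by -0.08.

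Genes for the complexes around Tra1 had medians near that of all genes. The 21 SAGA subunits had a median difference of 0.013 (-0.058 and 0.027 against M1 replicates 1 and 2). Of these subunits 2 were separated upwards and 3 downwards, beside 19.5% and 18.4% of all genes. Within them TAF9, a TATA-binding protein associated factor shared with TFIID, read 8.82 and 8.60 in M1 and 9.0 and 8.99 in M8, a difference of 0.29 (SE 0.13). SPT7, which holds the SAGA core together, read 7.88 and 8.31 in M1 and 7.84 and 7.81 in M8, a difference of -0.27 (SE 0.17). SGF29, which reads methylated histone H3, had M1 duplicates at 4.60 and 6.05 and M8 arrays between them. The 13 NuA4 subunits had a median of 0.017 (0.011 and 0.0037), with YAF9 at 0.32 (SE 0.18) as the largest difference. The 9 genes of the TTT chaperone complex and the PIKK kinases, which Tra1 depends on and belongs with, had a median of -0.037 (0.0058 and -0.070), with 0 separated upwards and 2 downwards. The 25 Mediator subunits had a median of 0.076 (0.018 and 0.088), with 6 above and 5 below, and MED8 differed by 0.39 (SE 0.21).

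Genes of mitosis mostly had higher means in M8. Of 20 genes of the CLB2 cluster, expressed from G2 to M phase, 11 had both M8 arrays above both M1 arrays and 1 had both below, where 19.5% and 18.4% of all genes did so. A higher mean was found for 19 of the 20, beside 52.4% of all genes, and the median difference was 0.16. The cluster's median was 0.10 against M1 replicate 1 and 0.23 against M1 replicate 2, beside -0.016 and 0.039 for all genes. CLB2, the paralog of CLB1, read 5.33 and 4.8 in M1 and 5.41 and 5.62 in M8, a difference of 0.45 (SE 0.20). SWI5, the activator of genes at mitotic exit, read 7.42 and 6.86 in M1 and 7.63 and 7.79 in M8, a difference of 0.57 (SE 0.20). CDC20, the activator of the anaphase-promoting complex, differed by 0.32 (SE 0.15). None of the 20 passed the adjusted threshold, and 2 had a higher level at an unadjusted p under 0.05, as did 2.74% of all genes. Of 21 genes of the M/G1 boundary 6 were separated upwards and 0 downwards (19.5% and 18.4% of all genes). Their median was 0.14, with 0.021 against M1 replicate 1 and 0.29 against M1 replicate 2. The daughter-specific wall enzyme DSE2 differed by 0.52 (SE 0.26). The 33 G1/S genes had a median of 0.072 (-0.015 and 0.069 against M1 replicates 1 and 2), with 7 above and 4 below, and YOX1, a repressor of M/G1 genes, differed by 0.38 (SE 0.19). The 5 histone genes measured had a median of 0.28 (0.10 and 0.32), and 4 were separated upwards. Among these were HTB2 by 0.39 (SE 0.21) and HTB1 by 0.29 (SE 0.18), and these H2B genes are near-identical copies. The remaining member, CSE4, read 7.42 and 7.89 in M1 and 7.44 and 7.16 in M8, a difference of -0.36. The 18 DNA damage genes had a median of -0.014 (-0.042 and -0.062), with 1 above and 6 below.

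Iron genes formed the group with the highest median among lists of more than 5 genes. Of 24 genes of the iron regulon, which the activator Aft1 switches on when iron is short, 13 had both M8 arrays above both M1 arrays and 1 had both below, beside 19.5% and 18.4% of all genes, and the median was 0.21. Against M1 replicate 1 the median was 0.074 and against M1 replicate 2 it was 0.24, and 18 and 20 of the 24 were higher in M8, beside 45.8% and 55.8% of all genes. FIT3 and FIT2, mannoproteins of the wall that hold siderophores, differed by 0.55 (SE 0.20) and 0.43 (SE 0.18). FIT3 read 9.20 and 8.65 in M1 and 9.46 and 9.50 in M8, and FIT2 read 8.60 and 8.15 in M1 and 8.86 and 8.75 in M8. ISU1 and TIS11, described above, were the other 2 of the 4 largest. The regulon also fell on the side where M1 replicate 2 was low, with 19 of 24 members lower in M1 replicate 2 than in replicate 1, beside 60.6% of all genes. The part of the M1 spread in this list was not tested.

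Respiration genes behaved similarly in direction and were less separated. Of 37 nuclear genes for the respiratory chain and the ATP synthase 11 were separated upwards and 1 downwards (19.5% and 18.4% of all genes), with a median of 0.081 that was 0.023 against M1 replicate 1 and 0.20 against M1 replicate 2. COX5A, a subunit of cytochrome c oxidase, read 8.78 and 7.76 in M1 and 8.84 and 8.87 in M8, a difference of 0.58 (SE 0.32). SDH2, the iron-sulfur subunit of succinate dehydrogenase, read 8.22 and 7.14 in M1 and 8.41 and 8.39 in M8, a difference of 0.72 (SE 0.34). SDH4, the membrane anchor of that enzyme, differed by 0.60 (SE 0.24), while the 19 TCA cycle genes as a list had a median of 0.032 (-0.085 and 0.12 against M1 replicates 1 and 2), with 4 above and 4 below. The 19 genes encoded in mitochondria had a median of -0.048 (-0.060 and -0.033), with 2 above and 4 below. The 70 mitochondrial ribosomal protein genes had a median of 0.073 (-0.0023 and 0.090), with 14 above and 6 below, and MRPS12 differed by 0.50 (SE 0.22).

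Ribosome biogenesis genes mostly had lower means in M8. Of 82 genes 34 had both M8 arrays below both M1 arrays and 1 had both above, against 18.4% below and 19.5% above among all genes, and 72 had a lower mean, beside 47.6% of all genes. The median was -0.14, and it was -0.16 and -0.13 against M1 replicates 1 and 2, with 73 and 55 of the 82 lower in M8, beside 54.2% and 44.2% of all genes. Between the M1 duplicates, 38 members were higher and 44 lower in replicate 2. SSF1 and UTP23, given above, were among the largest. RRP15, a constituent of precursors of the large subunit, read 8.41 and 8.87 in M1 and 8.20 and 8.11 in M8, a difference of -0.49 (SE 0.18). Among the 10 members with a higher mean, IMP3, a component of the small subunit processome, had the largest difference, at 0.60 (SE 0.28). It read 7.69 and 6.84 in M1 and 7.75 and 7.99 in M8. IMP3 was the single member with both M8 arrays above both M1 arrays. No member passed the adjusted threshold, and 6 had a lower level at an unadjusted p under 0.05, as did 1.4% of all genes.

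The 82 cytosolic ribosomal protein genes had a median of -0.026 (-0.042 and 0.0024 against M1 replicates 1 and 2). Of these genes 13 were separated upwards and 23 downwards, beside 19.5% and 18.4% of all genes. Their largest differences were positive, at 0.87 for RPS28B, 0.80 for RPL7B, 0.71 for RPL7A and 0.65 for RPL13A, all members of duplicated gene pairs. RPL7A read 12.85 and 11.86 in M1 and 13.09 and 13.05 in M8. The 30 subunits of RNA polymerases I and III and their regulators had a median of 0.0053, with -0.12 against M1 replicate 1 and 0.094 against M1 replicate 2, so no direction was common to both M1 arrays. RPC34 and RPC82, subunits of RNA polymerase III, differed by -0.27 (SE 0.11) and -0.25 (SE 0.13).

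Protein folding in the endoplasmic reticulum also had a negative median against both M1 arrays. Of 21 genes of the unfolded protein response and ER folding 9 were separated downwards and 4 upwards (18.4% and 19.5% of all genes), with a median of -0.15 that was -0.089 and -0.16 against M1 replicates 1 and 2. ERO1, the oxidase that drives disulfide formation, read 7.48 and 7.47 in M1 and 7.30 and 7.01 in M8, a difference of -0.32 (SE 0.14). MPD1, a protein disulfide isomerase family member, differed by -0.38 (SE 0.18) and the calnexin CNE1 by -0.27 (SE 0.16), while the stress sensor IRE1 differed by 0.24 (SE 0.14).

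Proteasome genes mostly had higher means in M8. Of 33 genes 24 had a higher mean (52.4% of all genes), and 16 were separated upwards and 3 downwards (19.5% and 18.4% of all genes). Of the 33, 16 also lay in a class of gene length, 675 to 1038 bases, in which 702 of 1092 protein-coding genes had a higher mean, and the part of length was not tested. The list had a median of 0.14 that was 0.059 against M1 replicate 1 and 0.19 against M1 replicate 2. PRE1, a subunit of the core particle, read 9.34 and 8.63 in M1 and 9.46 and 9.52 in M8, a difference of 0.51 (SE 0.24). RPN7, a subunit of the regulatory lid, differed by 0.41 (SE 0.15), and RPN13, a ubiquitin receptor, by 0.36 (SE 0.13). The 30 heat shock chaperones had a median of 0.0038 (-0.018 and -0.030 against M1 replicates 1 and 2), with 4 above and 6 below. HSP26 and HSP42, the small heat shock proteins that bind misfolded proteins, differed by 0.39 (SE 0.14) and 0.34 (SE 0.14), opposite in sign to HSP12. The 48 general stress genes of Msn2 and Msn4 had a median of 0.084 (0.030 and 0.17), with 14 above and 8 below, and within them TKL2, a transketolase, differed by -0.35 (SE 0.17). The 21 oxidative stress genes had a median of 0.047 (0.0032 and 0.049), with 4 above and 2 below.

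Cell wall genes differed more from one M1 array than from the other. Of 33 genes 15 were separated upwards and 0 downwards (19.5% and 18.4% of all genes), with a median of 0.19, but the median was 0.026 against M1 replicate 1 and 0.45 against M1 replicate 2. M1 replicate 2 was below M1 replicate 1 for 32 of the 33, beside 60.6% of all genes. PIR1, a wall glycoprotein, read 11.36 and 10.63 in M1 and 11.47 and 11.81 in M8. HSP150, a related secreted glycoprotein, read 12.00 and 11.30 in M1 and 12.07 and 12.37 in M8. SCW11, a glucanase of cell separation, read 8.71 and 7.69 in M1 and 8.71 and 8.79 in M8. For these 3 the gap between the M1 duplicates was 0.73, 0.69 and 1.01. The 23 multidrug resistance genes had a median of 0.16, made of 0.0095 and 0.29, with 9 above and 2 below. The exporter SNQ2 differed by 0.45 (SE 0.17), and TPO2 and TPO3 were the 2 members of this list separated downwards. The 20 anaerobic and hypoxic genes had a median of 0.15, made of 0.0073 and 0.25, and the repressor gene ROX1 differed by 0.40 (SE 0.18). The 10 seripauperins, wall proteins of a subtelomeric family, had a median of 0.059 (-0.0057 and 0.12 against M1 replicates 1 and 2), with 1 above and 0 below.

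**Figure D4:**
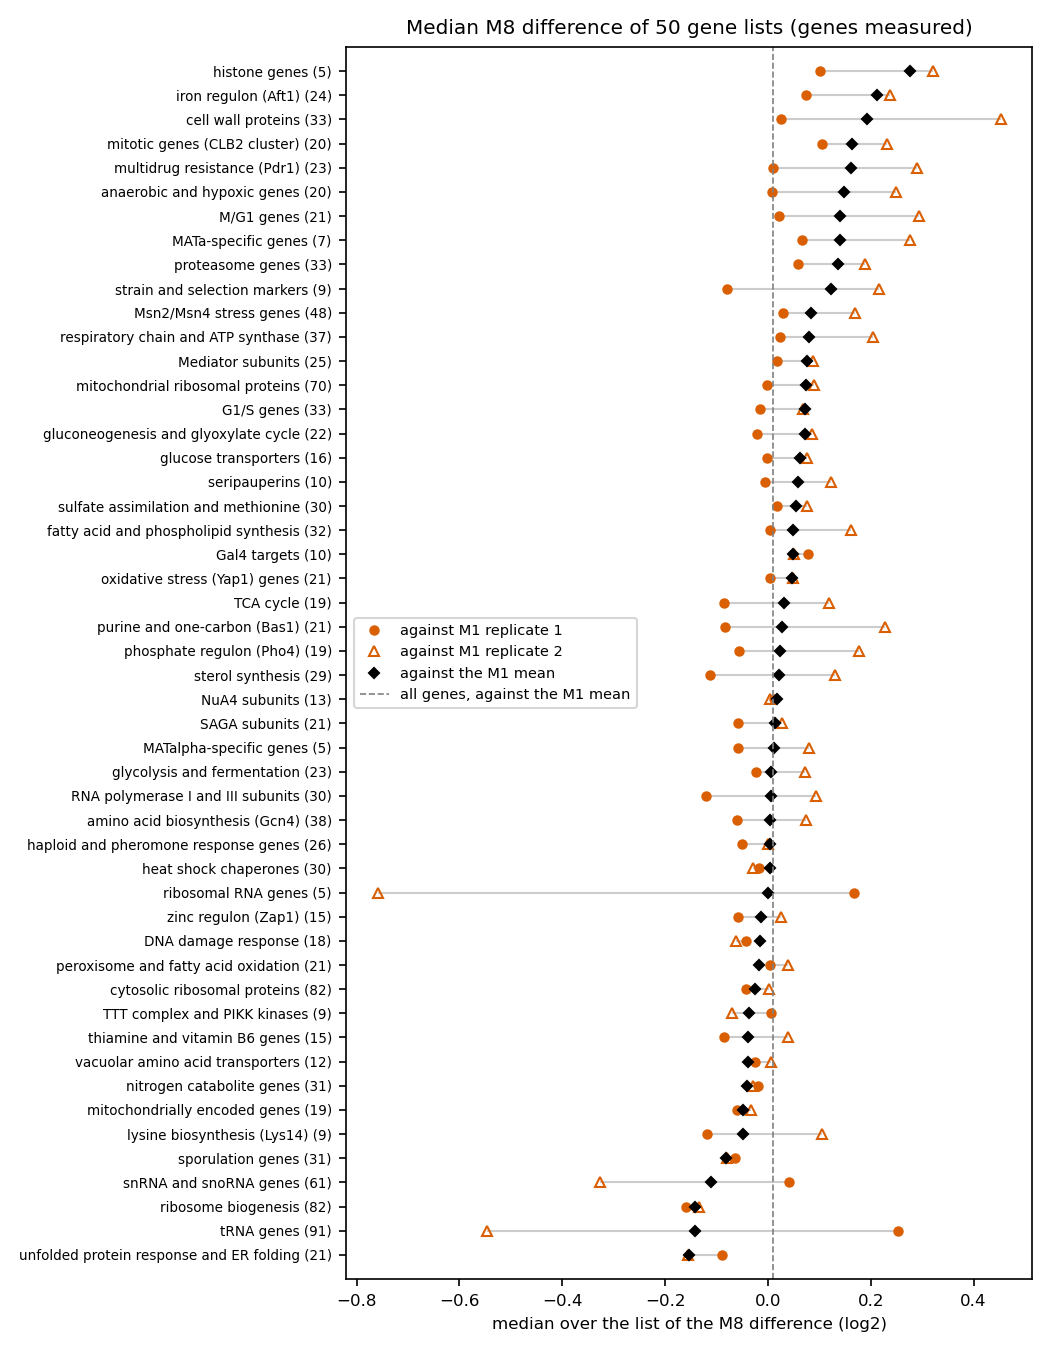
Median log2 difference of the M8 mean from the M1 mean (diamonds), M1 replicate 1 (circles) and M1 replicate 2 (triangles) for 50 gene lists, with the number of genes measured in brackets and the median of all genes against the M1 mean as a dashed line. Ribosome biogenesis lies below 0 against both M1 arrays (-0.16 and -0.13), whereas cell wall genes lie at 0.026 against one and 0.45 against the other, and tRNA genes lie on opposite sides.

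Metabolic lists had small medians. The 21 purine and one-carbon genes of Bas1 had a median of 0.027, made of -0.083 against M1 replicate 1 and 0.23 against M1 replicate 2. Of these genes 8 were above and 3 below, beside 19.5% and 18.4% of all genes. The largest differences in the list were those of the glycine cleavage and one-carbon genes, with GCV2 at 0.32 (SE 0.17) beside GCV1 and MTD1. The 30 genes of sulfate assimilation and methionine had a median of 0.054 (0.017 and 0.077 against M1 replicates 1 and 2), with 6 above and 2 below. MET13, the reductase that makes methyl-tetrahydrofolate, read 6.03 and 5.35 in M1 and 6.15 and 6.39 in M8, a difference of 0.58 (SE 0.24). SAM3, a permease for S-adenosylmethionine, differed by -0.40 (SE 0.14) on its chosen probe set. The 38 amino acid genes of Gcn4 had a median of 0.0050 (-0.060 and 0.075), with 4 above and 8 below. The 9 lysine genes had a median of -0.049 (-0.12 and 0.11) and the 15 thiamine and vitamin B6 genes one of -0.038 (-0.085 and 0.040). Nitrogen catabolite genes, 31 in number, had a median of -0.041 (-0.020 and -0.029), and 12 vacuolar amino acid transporters one of -0.039 (-0.025 and 0.0055). TRP2, of tryptophan synthesis, differed by -0.38 (SE 0.11), and GLN3, an activator of nitrogen catabolite genes, by 0.38 (SE 0.15).

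Carbon and lipid genes gave the following medians, each with the values against M1 replicates 1 and 2 in brackets. The 23 glycolysis and fermentation genes had a median of 0.0070 (-0.024 and 0.071), with 5 above and 4 below (19.5% and 18.4% of all genes). GPD2, a glycerol-3-phosphate dehydrogenase, differed by -0.35 (SE 0.14). The 16 glucose transporter genes and their repressors had a median of 0.062 (-0.0020 and 0.076), and the repressor genes MIG1 and MIG2 differed by 0.42 (SE 0.19) and 0.43 (SE 0.15). The 22 genes of gluconeogenesis and the glyoxylate cycle had a median of 0.072 (-0.021 and 0.087), with 7 above and 4 below. Their activator ADR1 read 6.58 and 5.71 in M1 and 6.63 and 6.71 in M8, a difference of 0.52 (SE 0.28), while PCK1, the key enzyme of gluconeogenesis, differed by -0.40 (SE 0.14). The 32 fatty acid and phospholipid genes had a median of 0.050 (0.0037 and 0.16), with 11 above and 4 below, led by ELO2, a fatty acid elongase, at 0.55 (SE 0.19) and FAA3, an acyl-CoA synthetase, at 0.54 (SE 0.20). The 29 sterol genes had a median of 0.022 (-0.11 and 0.13), and the 21 peroxisomal genes one of -0.017 (0.0038 and 0.039). The 19 phosphate genes had a median of 0.024 (-0.056 and 0.18), and beside PHO4 the phosphate-responsive genes PHM6 and PHM8 differed by 0.46 (SE 0.22) and 0.46 (SE 0.27). The 15 zinc genes had a median of -0.012 (-0.058 and 0.025), with 0 above and 2 below.

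Mating type and ploidy markers kept the same order in the 4 arrays. The 7 MATa-specific genes had a median level between the percentiles 75.1 and 82.7 of all genes on each array, the 5 MATalpha-specific genes between 24.7 and 29.9, and the 31 sporulation genes between 3.64 and 4.24. The median differences of these lists were 0.14 (0.066 and 0.28 against M1 replicates 1 and 2), 0.011 (-0.058 and 0.080) and -0.082 (-0.064 and -0.080). The sporulation genes had 10 members separated downwards and 3 upwards (18.4% and 19.5% of all genes), at levels among the lowest on the arrays. The 26 haploid and pheromone response genes had a median of 0.0043 (-0.051 and -0.00070), with 5 above and 9 below, and the pheromone pathway genes FUS3, a MAP kinase, and FAR1, a cyclin-dependent kinase inhibitor, differed by 0.55 (SE 0.16) and 0.39 (SE 0.14). The 9 strain and selection markers had a median of 0.12 (-0.079 and 0.22), with 2 above and 0 below.

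Noncoding RNA was where the M1 duplicates differed most as a class. Of 91 tRNA genes 90 read higher in M1 replicate 2 than in replicate 1, beside 39.4% of all genes. Both M8 arrays lay between the M1 arrays for 74 of them, beside 27.7% of all genes. The median tRNA difference was -0.14, but it was 0.25 against M1 replicate 1 and -0.55 against M1 replicate 2. In the first case 85 tRNA genes were higher in M8 and in the second 1, beside 45.8% and 55.8% of all genes. No direction can be given for tRNA between the mutants. The 61 small nuclear and nucleolar RNAs had a median of -0.11, with 0.040 and -0.33 against the 2 M1 arrays. Of these RNAs 2 were separated upwards and 14 downwards, beside 19.5% and 18.4% of all genes. SNR75, a guide of ribosomal RNA methylation, read 9.16 and 9.79 in M1 and 9.02 and 8.88 in M8, a difference of -0.52 (SE 0.22). Some of these RNAs lie in introns of coding genes or in shared precursors, and a probe set may read the precursor. The 5 ribosomal RNA genes had a median of -0.00055 (0.17 and -0.76 against M1 replicates 1 and 2), and their chosen probe sets spanned -1.05 for RDN5-3 to 0.61 for RDN37-1. Further probe sets of RDN37-1 ranged from -0.40 to 0.77. The protocol primes from poly(A) tails, which most of these RNAs lack, so these values do not measure their abundance in the way they do for messages.

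**Figure D5:**
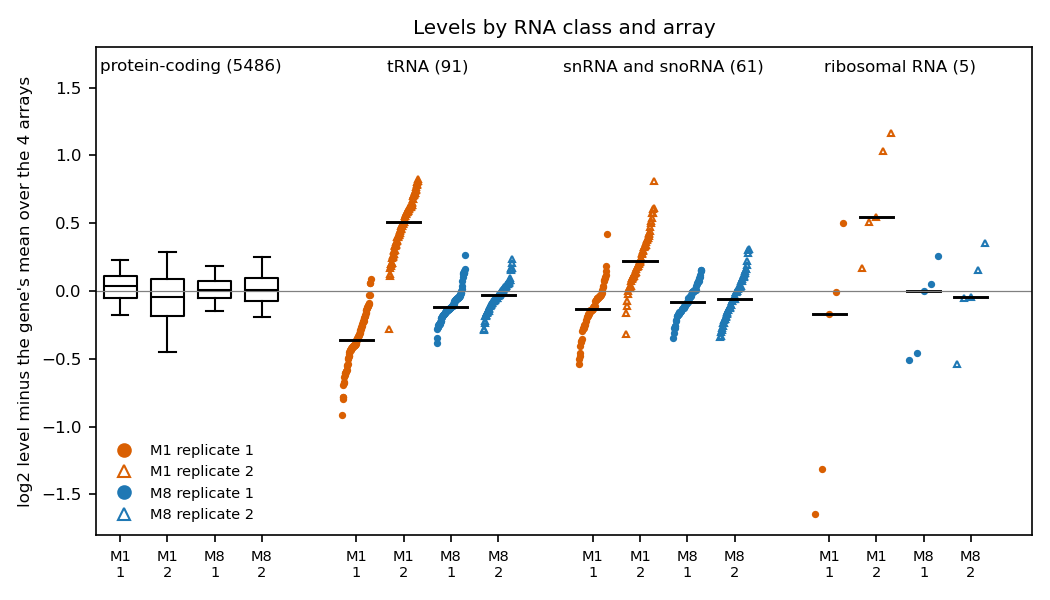
Log2 level minus the gene's mean over the 4 arrays (vertical axis), by RNA class and array. Boxes of the protein-coding genes span the quartiles with whiskers at percentiles 5 and 95, while points are single genes of the other classes and bars are their medians. Most tRNA genes are highest in M1 replicate 2 and lowest in M1 replicate 1, with both M8 arrays between, and protein-coding genes centre near 0 on all arrays.

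Position and gene length were examined over all genes. The median difference by chromosome lay between -0.017 and 0.044 for the 16 nuclear chromosomes. Protein-coding genes of 675 to 1038 bases had a median difference of 0.072. The 4 other length classes of nearly equal size had medians between -0.019 and 0.029. Of the 1092 genes of 675 to 1038 bases, 702 had a higher mean in M8, beside 52.4% of all genes. In that class 327 genes were separated upwards and 136 downwards, beside 19.5% and 18.4% of all genes. That class held 16 of the 33 proteasome genes, 40 of the 82 cytosolic ribosomal protein genes, 29 of the 70 mitochondrial ribosomal protein genes, 10 of the 82 ribosome biogenesis genes and 3 of the 24 iron genes, beside 1092 of the 5486 protein-coding genes, and the part of gene length in the list values was not tested. Across 5 classes of expression level the median lay between -0.00066 and 0.024.

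Several genes were read by more than 1 probe set. Over 315 such genes, 467 of 848 further probe sets had the sign of the chosen one. For AST1 the second probe set differed by 0.12 where the chosen one gave -0.44, and for UGA2 by 0.25 where the chosen one gave -0.40. COS7 gave 0.07 and LSB1 0.17 and -0.10 on their further probe sets. FUS3 gave 0.97 and -0.21. For SAM3 the further probe sets gave -0.032, 0.072, -0.048 and -0.21 where the chosen one gave -0.40. Those of YMR230W-A gave -0.36, 0.018 and 0.020 where the chosen one gave -0.52. RDN5-1 gave -0.44 on its second probe set, with interleaved arrays, where the chosen one gave -0.50. Second probe sets for RUB1 (-0.69), RPS28B (0.71) and RPL7B (0.51) had the sign of the chosen ones.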

How the data were processed

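The authors deposited log2 levels of one-colour Affymetrix probe sets; the submitters' processing notes name RMA and oligo, with no versions or settings. Array medians of 6.48 to 6.52 show that the 6 arrays were brought to a common scale, and a shift of all messages together would not be visible. The deposited table gives no detection calls, and the number of arrays limits the precision.

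Of 9275 probe sets 6504 named a single gene, and all of these matched the R64 gene table, which served for names, RNA classes, chromosomes and lengths. The other 2771 are not used here. M8 and M1 were compared on the 4 mutant arrays with lmFit and eBayes of limma 3.58.1 in R 4.3.3, with 2 residual and 3.80 prior degrees of freedom, two-sided p-values and Benjamini-Hochberg adjustment over 5656 genes. The fit was tested on simulated data in which the 4 arrays of a gene had the same spread. That test does not cover the unequal spread of the M1 and M8 duplicates. Genes were named by rule: TRA1, GAL4 and the Gal4 targets, the 15 lowest p and the 10 largest differences in each direction among genes whose arrays do not overlap, the 10 largest differences between the M1 duplicates in each direction, and up to 4 members of each of 50 lists. The comparison, the members and the lists were chosen with earlier results of these data known. A planned list of transposon and subtelomeric element genes was left out because its identifiers also took in other genes. The differences between duplicates of M1 and of M8 correlated at -0.11 over genes. This single correlation cannot show whether the replicate numbers pair the arrays, and the main fit took them as unpaired. In total 16 alternatives were run.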

Additional observations from a re-analysis of the deposited data

How the results depend on the processing

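The count of 0 genes at an adjusted p under 0.05 was the same under every alternative that kept all 4 mutant arrays, with smallest adjusted p-values in limma or the ordinary linear model from 0.200 (array weights) to 0.961 (replicate block). It ranged from 0 to 1901 when an array was left out, being 1901 without M1 replicate 1, 142 without M1 replicate 2 and 0 without either M8 array. The 234 genes at an unadjusted p under 0.05 ranged from 7 to 2406 when an array was left out, being 888 without M1 replicate 2 and 38 without M8 replicate 1. They became 364 with all 6 arrays in the estimate of the spread and 195 with the replicate number as a block. With the block on crossed numbers, chosen after seeing the data because the duplicates' differences correlated at -0.11, there were 364 and 0 after adjustment. The other settings gave between 164 (genes of low level left out) and 286 (array weights).

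Among settings that left out no array, only quantile normalization, median centring and the mean of a gene's probe sets could change a named gene's difference. In these the sign changed for 2, 0 and 1 of 192 named genes. The other such settings change the error or the genes tested and leave each difference as it was, so they say nothing about its sign. The genes that changed were TRA1 with the mean of its probe sets (-0.0050), and GAL2 (-0.021) and GAL3 (-0.011) after quantile normalization. When an array was left out, the sign also changed for these genes, given as lowest and highest difference: TRA1 -0.067 and 0.23, FUR4 -0.16 and 0.086, GAL1 -0.15 and 0.073, GAL10 -0.0043 and 0.32, GAL2 -0.055 and 0.12, GAL3 -0.15 and 0.19, and GAL7 -0.063 and 0.22. Genes named for the distance between the M1 duplicates were RDN37-1 with -0.73 and 1.95, RDN18-1 with -1.09 and 1.39, YDR524W-C with -1.76 and 0.47, MPT5 with -0.77 and 1.0, VLD1 with -0.42 and 1.11, SGF29 with -1.02 and 0.43, and PUF3 with -1.17 and 0.34. MRH1 ranged between -0.14 and 1.34, YNL184C between -0.22 and 1.06 and YBR090C between -0.11 and 1.15. Among tRNA genes YNCD0014C ranged between -0.66 and 1.0, YNCB0006W between -0.93 and 0.46, YNCE0012W between -0.48 and 0.91 and YNCP0004C between -0.49 and 0.87. By their construction these genes turn on which M1 array is kept. List medians changed sign for 12 of 51 lists and gene classes after quantile normalization, 8 after median centring, 8 without M1 replicate 1 and 23 without M1 replicate 2, and the cause was not tested.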
